A study of Rattus norvegicus with 24 samples.

Results

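The urethra of rats was compared 3d after simulated vaginal delivery (SVD) between animals given VEGF-overexpressing allogeneic mesoangioblasts (MABsallo-VEGF) and animals given saline. The comparison holds 8 of the 24 samples of the series, 4 in each group. It covers the 16336 of 32883 genes whose mean normalized gene count was at least 2 over these 8 samples. A normalized gene count is the number of reads on a gene divided by the size factor of its library. Because 1 saline and 1 MABsallo-VEGF library stood apart from their groups, every result is given for all 8 samples and again for the 6 samples without them.

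All animals were young adult virgin female Sprague-Dawley rats and all underwent SVD, a crush of the pudendal nerve combined with vaginal distension. The saline group (saline 3d, tissue labelled WT) received the vehicle into the aorta after the injury. The MABsallo-VEGF group (VEGF MABs 3d, labelled VEGF OE) received cells by the same route. Another group received MABsallo, the same kind of cells without the VEGF vector. Its values are set beside those of MABsallo-VEGF, and the difference between both was tested. Its libraries also enter the main fit, in which all 6 groups of the series set the spread behind each SE and p-value. The cells came from hind-limb muscle of a donor rat and were sorted after transduction with a lentiviral reporter vector. MABsallo-VEGF also carried a lentiviral vector in which the SFFV promoter drives VEGF165 together with a truncated CD34. No uninjured urethra enters the comparison, and the share of injected cells in these samples was not analysed here, so RNA of the cells and of the host cannot be told apart. The urethra was sampled whole, and in such bulk tissue fewer cells of a type and less RNA per cell cannot be told apart either.

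Mesoangioblasts are progenitors associated with the wall of small vessels and can enter skeletal muscle. VEGF-A binds the receptor tyrosine kinases Flt1 and Kdr and the co-receptors Nrp1 and Nrp2 on endothelial cells, and Kdr carries most of its signal for vessel growth. Damaged striated muscle regenerates from satellite cells, which express Pax7, pass through a phase of myogenic factors and then make embryonic and perinatal isoforms of contractile proteins before the adult ones. The urethra holds an outer striated sphincter, smooth muscle, vessels, nerve and a urothelial lining.

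Libraries of the saline group held 4851797 to 5249467 reads on genes and those of MABsallo-VEGF 3042531 to 4261098, and 1 read was worth 3.44 to 3.92 and 4.45 to 8.33 normalized counts, respectively. Below, saline values are in the order of replicates 6, 8, 9 and 10, and MABsallo-VEGF values in the order of replicates 1, 2, 3 and 4. Over the tested genes, the root mean square difference on the log2(normalized gene count + 1) scale between the library labelled saline replicate 6 and the mean of the other libraries of its group was 1.45, against 1.05 to the mean of MABsallo-VEGF. The library labelled MABsallo-VEGF replicate 4 was at 1.52 from its own group and at 1.06 from saline. Both libraries thus lay nearer to the group they are not labelled with, whereas each of the other 6 lay nearer to its own group. Whether these 2 labels were exchanged cannot be told from the files, and the labels were kept for all values of the 8 samples. Gene models AY172581.24 and AY172581.9, which carry the name of a rat mitochondrial sequence, took 8.29%, 0.657%, 1.64% and 2.59% of the saline libraries and 18.1%, 24.5%, 20.5% and 4.06% of those of MABsallo-VEGF. The 2 libraries that stood apart lay between the rest of both groups in this share too, and the part of this share in the results below was not tested. Saline replicate 8 and MABsallo-VEGF replicate 2 were poor in epithelium: the 19 tested urothelial and squamous genes summed to 40786, 3375, 43493 and 37277 normalized counts in saline and to 57667, 3709, 59556 and 31351 after MABsallo-VEGF.

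**Figure D1:**
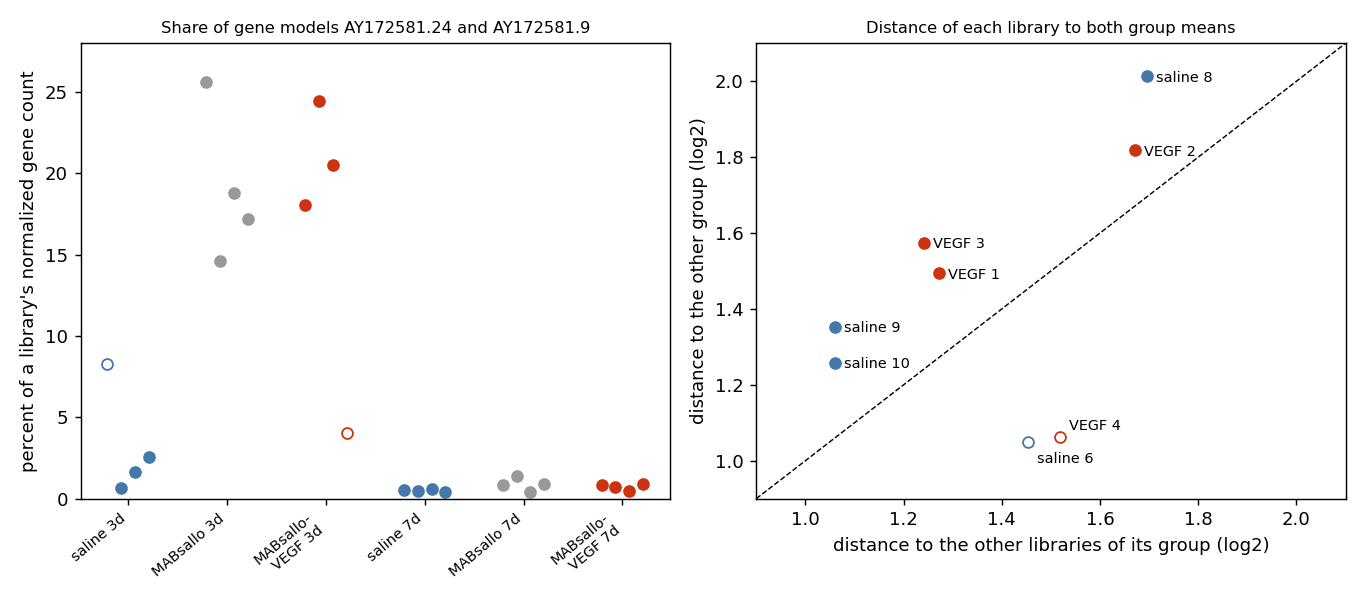
Left, the percent of each library's normalized gene count on gene models AY172581.24 and AY172581.9, by group and day, 1 point per library. Right, for the 8 libraries of the comparison, the root mean square log2 distance to the mean of the other libraries of the same group and to the mean of the other group. Below the dashed line a library is nearer to the other group. Open points are saline replicate 6 and MABsallo-VEGF replicate 4, the only libraries below that line.

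Tests were made with limma on log2(normalized gene count + 1), and a gene was a differentially expressed gene (DEG) where its log2 fold change was beyond 1 in either direction and its adjusted p was below 0.05. With all 8 samples there were 5 DEGs, all higher after MABsallo-VEGF (0.0306% of the genes tested), and 2982 genes had an unadjusted p below 0.05. No gene was called lower, whereas DESeq2 on the recovered reads called 369 higher and 32 lower, and edgeR 1 higher and 0 lower. In the 6 samples there were 2256 DEGs, 1886 higher (11.5%) and 370 lower (2.26%), and all 5 DEGs of the 8 samples were among them. The limma SE and p-values use a spread estimated over all 6 groups of the series, not only over both groups compared. With only both groups in the fit there were 0 DEGs in the 8 samples and 956 in the 6. On this scale a fold change compares means of log values, so a single library at 0 can make it larger, and the added 1 makes it smaller for genes with few reads. The 2 libraries were left out for their expression, a choice that the p-values of the 6 samples do not cover. Leaving out either of them alone gave 1123 DEGs (without saline replicate 6) or 1274 (without MABsallo-VEGF replicate 4). Leaving out saline replicate 8 or 9 or MABsallo-VEGF replicate 1, 2 or 3 from the 8 samples left 0 DEGs, with 1623 to 2492 genes at an unadjusted p below 0.05, and leaving out saline replicate 10 left 1. Leaving out saline replicate 8 from the 6 samples lowered the count to 1181. The balance of the calls moved with the scaling: 83.6% of the DEGs of the 6 samples were higher as deposited, but 64.3% after quantile normalization and 57.3% after scaling every library to the same total, which moved the median log2 fold change of all genes from 0.07 to -0.19 and -0.23. Without the AY172581 gene models the same scaling gave 82.6%. Over all 8 samples the groups did not overlap at 385 genes that were higher after MABsallo-VEGF (2.36%) and at 270 that were lower (1.65%). Of the DEGs of the 6 samples, 168 higher and 35 lower genes belonged to these.

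The 5 genes called with all samples were Immt, Ccnt1, Gabra2, Mcc and AC111847.1. Immt encodes mitofilin, the inner membrane protein that holds mitochondrial cristae junctions, and was the only one of the 5 with high counts. It stood at 506, 223, 311 and 362 normalized counts in the saline samples and at 1876, 2075, 1413 and 517 after MABsallo-VEGF. The lowest MABsallo-VEGF sample, replicate 4, was only just above the highest saline sample, replicate 6. The log2 fold change was 1.95 ± 0.31 (SE, adjusted p = 0.0227) in the 8 samples and 2.59 ± 0.22 (SE, adjusted p = 2.65e-06) in the 6. Ccnt1 encodes cyclin T1, a subunit of the kinase P-TEFb that releases paused RNA polymerase II. Its counts were 0, 0, 0 and 3.52 in saline, where a single read was found in 4 libraries, and 48.7, 33.3, 35.3 and 13.4 after MABsallo-VEGF. The ratio of the group means was 37.1 with an exact 95% counting interval of 5.69 to 1445, which covers counting error only. Gabra2, a subunit of the GABA-A receptor, was at 0 in every saline sample and at 10.8, 16.7, 15.1 and 44.5 after MABsallo-VEGF, at least 2.01-fold higher when 0 is set to 3 reads in each saline library. Mcc, a negative regulator of cell cycle progression, was likewise at 0 in saline and at 16.2, 8.33, 15.1 and 13.4 after MABsallo-VEGF, and AC111847.1 at 0 and at 10.8, 25, 10.1 and 13.4. Both groups were under 3 reads per library on average for Mcc and AC111847.1, so no fold is given. The adjusted p was 0.0227 for each of these 4 genes in the 8 samples.

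Among the DEGs of the 6 samples whose 4 and 4 samples did not overlap, the 12 largest rises were in genes with low counts in saline. Pdk4 encodes the kinase that shuts off pyruvate dehydrogenase and shifts fuel use from glucose to fatty acids. No saline sample had a read of Pdk4, and the MABsallo-VEGF samples stood at 37.8, 83.3, 111 and 4.45, of which the value of replicate 4 is a single read. Pdk4 was at least 5.46-fold higher over the 8 samples by the same bound. Acbd5, a peroxisomal protein that tethers peroxisomes to the endoplasmic reticulum, stood at 17.2, 0, 0 and 14.1 in saline and 91.9, 150, 131 and 44.5 after MABsallo-VEGF (log2 fold change 5.64, SE 1.13, adjusted p = 0.00213 in the 6 samples). Spred1, which restrains Ras signalling downstream of growth factor receptors, stood at 41.3, 3.92, 0 and 21.1 and 151, 275, 237 and 53.4 (log2 fold change 5.50, SE 1.18, adjusted p = 0.00328). Fam171a1, a membrane protein, stood at 41.3, 0, 28.6 and 28.2 and 141, 375, 288 and 120.2 (log2 fold change 4.71, SE 1.03, adjusted p = 0.00373). Map3k20, a stress-activated kinase also known as ZAK, stood at 68.9, 0, 85.8 and 77.4 and 492, 458, 499 and 111 (log2 fold change 4.67, SE 1.08, adjusted p = 0.00556). In all 4 of these genes replicate 4 was the lowest of its group and saline replicate 8 was at or next to 0. With edgeR on the recovered reads the log2 fold changes of Acbd5, Spred1, Fam171a1 and Map3k20 in the 6 samples were smaller, at 4.45, 4.52, 3.65 and 3.02, and the ratio of the group means of Map3k20 was 8.88. The chemokine receptor Ccr1 stood at 3.44, 0, 3.57 and 0 and 10.8, 83.3, 121 and 8.91, with 2 MABsallo-VEGF samples close to the saline range. The remaining rises chosen by the rule were Snx29, N5, Ppp1r13b, Hmgxb3, Tcp11l1 and Syde2, with log2 fold changes between 4.70 (Syde2) and 5.24 (Snx29) in the 6 samples except for N5, which had 3 reads in saline and a ratio of means of 28.2 with a counting interval of 8.58 to 133. In the 8 samples the adjusted p of these 12 genes ran from 0.0671 to 0.0862.

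The 12 largest falls by the same rule were in genes with counts in every sample. Ccl24, or eotaxin-2, attracts eosinophils and is made by alternatively activated macrophages. It stood at 182, 1082, 357 and 148 in saline and at 27, 142, 55.5 and 142 after MABsallo-VEGF, so that the groups nearly met at saline replicate 10 and MABsallo-VEGF replicate 4 (log2 fold change -2.67, SE 0.91, adjusted p = 0.0476 in the 6 samples, log2 fold change -2.09, SE 0.77, adjusted p = 0.157 in the 8). Penk encodes the precursor of the enkephalins, opioid peptides of nerve and stroma. Its counts were 327, 584, 332 and 855 in saline and 129.8, 91.7, 80.7 and 303 after MABsallo-VEGF (log2 fold change -2.47, SE 0.62, adjusted p = 0.00956 in the 6 samples). Tspan18, a tetraspanin of endothelial cells, stood at 1012, 1250.4, 1397 and 1263 and 514, 533, 323 and 908 (log2 fold change -1.54, SE 0.31, adjusted p = 0.00215). Bcl6b, a transcriptional repressor found in endothelium, stood at 172, 270.5, 264 and 289 and 64.9, 117, 40.4 and 169 (log2 fold change -2.01, SE 0.59, adjusted p = 0.0239). Mrps7, a protein of the small subunit of the mitochondrial ribosome, stood at 1078, 2191, 1179 and 1334 and 816, 575, 590.3 and 988 (log2 fold change -1.21, SE 0.24, adjusted p = 0.00208). Sesn1, a sestrin that restrains mTORC1, stood at 1102, 2187, 1387 and 1056 and 622, 683, 626 and 908 (log2 fold change -1.20, SE 0.28, adjusted p = 0.00557). MABsallo-VEGF replicate 4 was the highest of its group for these 6 genes, and saline replicate 6 the lowest or second lowest of its group. Slc4a11, Tmem138, Dmtn, Isyna1, Eef1akmt2 and Fam151b made up the other 6 falls, with log2 fold changes from -2.16 (Slc4a11) to -1.28 (Fam151b) in the 6 samples. In the 8 samples the adjusted p of the 12 falls ran from 0.0746 to 0.157.

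**Figure D2:**
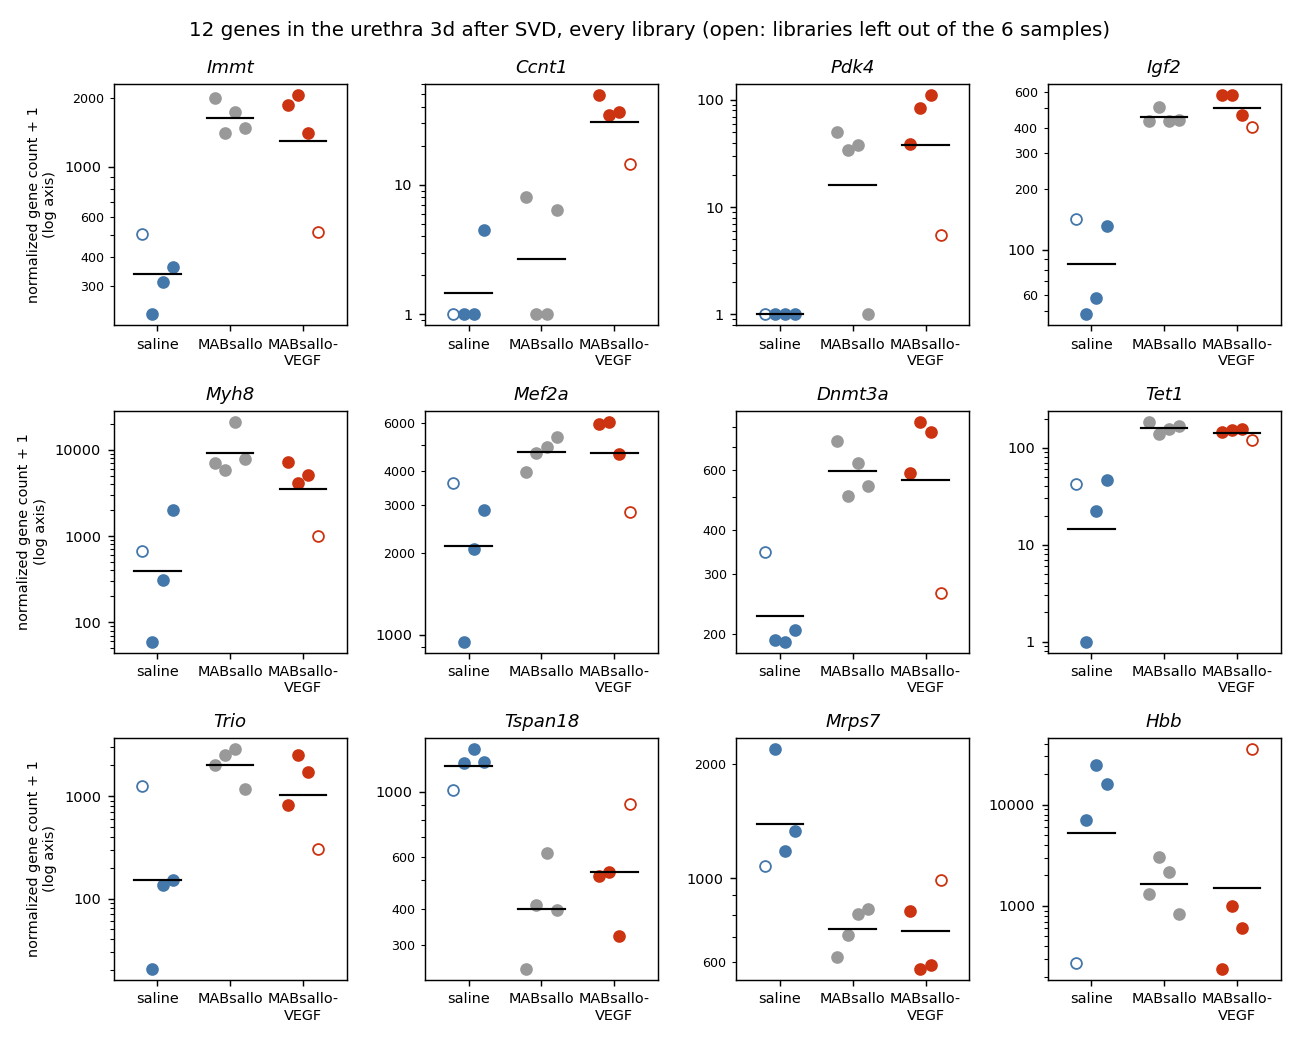
Normalized gene count + 1 on a log axis for 12 genes in the saline, MABsallo and MABsallo-VEGF samples at 3d, 1 point per library, with the mean of the log values as a line. Open points are saline replicate 6 and MABsallo-VEGF replicate 4. Pdk4 sits at 0 counts in every saline library, Tspan18 and Mrps7 are lower in every MABsallo-VEGF library than in every saline library, and for Hbb the open saline point lies among the MABsallo-VEGF libraries and the open MABsallo-VEGF point above all saline libraries.

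The upstream sequences of 2 rises and 1 fall are shown because these genes separate all 8 samples. They are the 250 bases before the annotated start in RefSeq on the build GRCr8, a different build from that of the counts. Capitals mark, on either strand, the hypoxia element core ACGTG, the CCAAT box, the GC box with the letters GGGCGG, the TATA box with the letters TATAAA and the ETS-type motif with the letters CCGGAAG. Ccnt1 lies at chr7:131596939-131597188 on the minus strand, Pdk4 at chr4:34568330-34568579 on the minus strand and Mrps7 at chr10:101342392-101342641 on the plus strand.
Ccnt1: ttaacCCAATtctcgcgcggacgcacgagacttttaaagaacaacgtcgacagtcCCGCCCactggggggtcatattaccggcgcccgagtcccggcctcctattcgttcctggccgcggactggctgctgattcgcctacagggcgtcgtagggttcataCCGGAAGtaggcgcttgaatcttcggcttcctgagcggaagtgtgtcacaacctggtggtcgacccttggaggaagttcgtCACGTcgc
Pdk4: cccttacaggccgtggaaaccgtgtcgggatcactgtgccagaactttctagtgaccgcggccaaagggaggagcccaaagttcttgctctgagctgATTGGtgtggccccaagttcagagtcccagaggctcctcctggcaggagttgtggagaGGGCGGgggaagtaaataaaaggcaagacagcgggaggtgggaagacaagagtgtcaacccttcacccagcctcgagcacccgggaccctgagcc
Mrps7: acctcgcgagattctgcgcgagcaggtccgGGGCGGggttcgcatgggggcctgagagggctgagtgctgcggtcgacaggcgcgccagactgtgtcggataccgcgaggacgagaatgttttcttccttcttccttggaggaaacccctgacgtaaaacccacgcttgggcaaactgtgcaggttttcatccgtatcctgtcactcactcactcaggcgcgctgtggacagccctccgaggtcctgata
All 3 windows hold 1 GGGCGG, which 30.5% of the 33469 RefSeq upstream windows of this length hold. Ccnt1 and Pdk4 hold 1 CCAAT each (34.0% of windows), and Ccnt1 also holds 1 ACGTG (16.6%) and 1 CCGGAAG (7.27%). No window holds TATAAA (12.9%) or CANNTG (65.5%), a pattern that also covers ACGTG where a C stands before it. A match is a description of the letters and not a bound site. Immt has no entry in the table used. A symbol match to the table was found for 68.4% of the genes tested and for 69.1% of the genes called higher in the 6 samples, under the 80% set as a minimum, so a comparison of motifs between called genes and all genes is void.

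The gene lists were described by how many tested members were called in the 6 samples, beside 11.5% higher and 2.26% lower over all genes. In the 8 samples no member of any of the 36 lists was called by limma or edgeR, between 0 and 60 members of a list had an unadjusted p below 0.05, and DESeq2 called members of 16 lists. Of the DEGs of the 6 samples, all 2256 had the same sign in the 8 samples, where their median absolute log2 fold change was 1.70. The 6 samples are part of the 8 and the genes were picked on them, so the shared sign is not independent evidence.

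**Figure D3:**
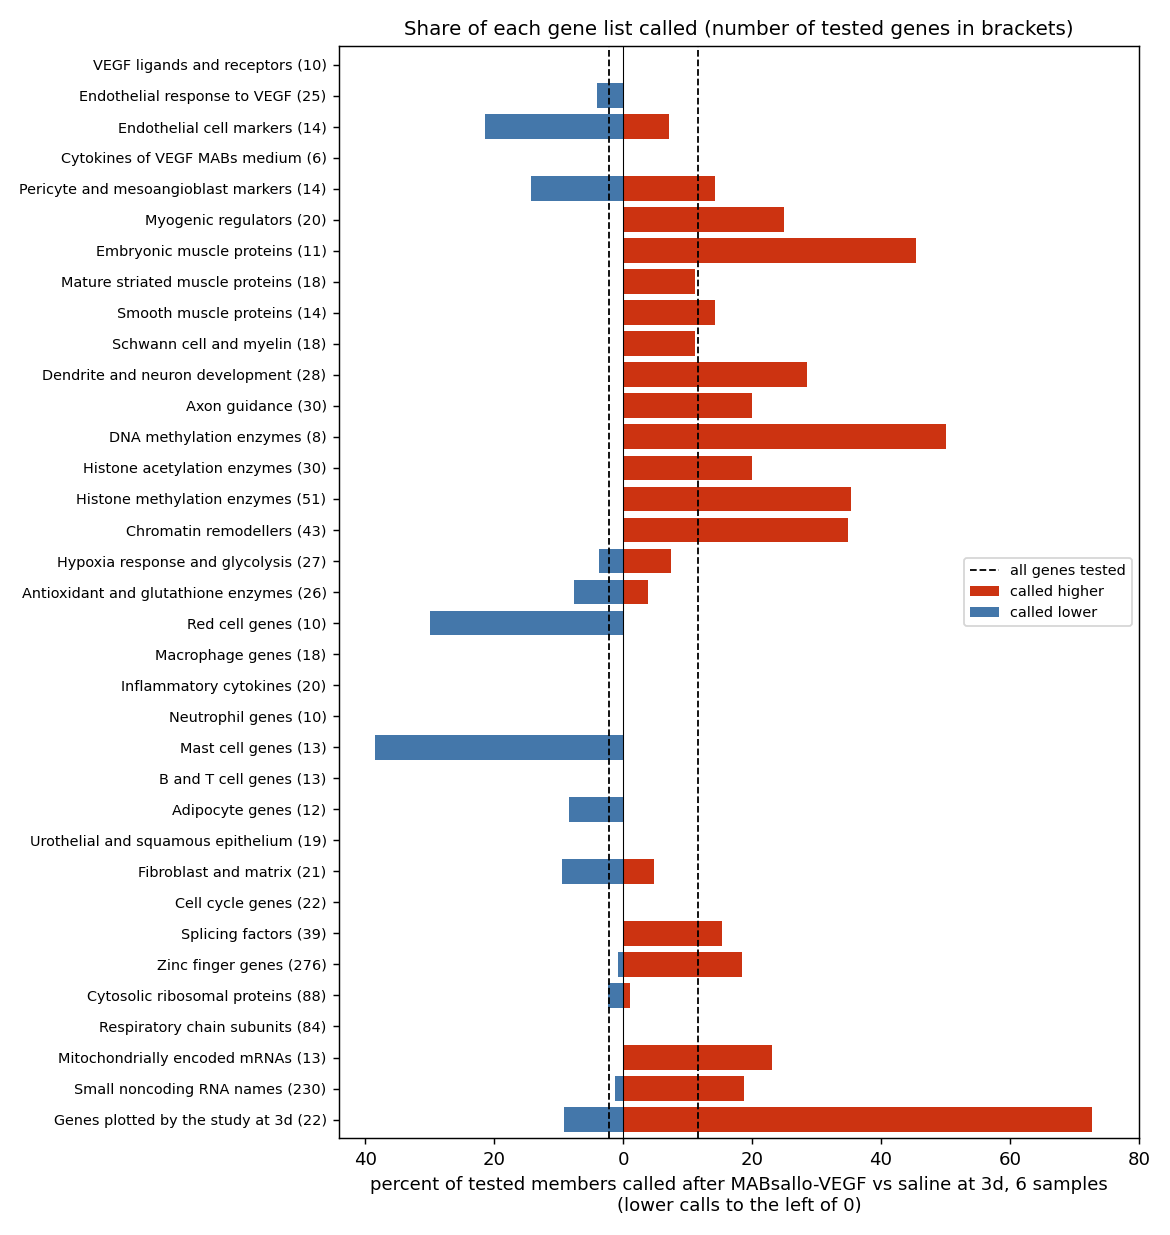
Percent of the tested members of the gene lists called higher (right) or lower (left) after MABsallo-VEGF vs saline at 3d in the 6 samples, with the number of tested members in brackets. Dashed lines mark the 11.5% higher and 2.26% lower of all genes tested. Among the lists beyond them are DNA methylation, histone methylation, chromatin remodellers and embryonic muscle to the right and mast cell and red cell genes to the left. Further lists pass them too, such as dendrite and neuron development (28.6%) to the right and endothelial cell markers (21.4%) to the left.

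None of the 10 VEGF ligands and receptors was called in either set, and 1 of them in the 8 samples (Kdr) and 2 in the 6 (Flt1 and Kdr) had an unadjusted p below 0.05. edgeR and DESeq2 called none either. The rat gene Vegfa stood at 1036, 1117, 958 and 1172 normalized counts in saline and at 1352, 1167, 1292 and 619 after MABsallo-VEGF, with replicate 4 below every other sample. Its log2 fold change was -0.01 ± 0.26 (SE, adjusted p = 0.989) in the 8 samples and 0.23 ± 0.27 (SE, adjusted p = 0.603) in the 6. It is not known if vector RNA adds to the counts of rat Vegfa and Cd34, so neither gene checks the labels. Kdr, the main signalling receptor, stood at 1054, 1254, 989.9 and 1101 and 529.9, 1025, 499 and 779 (log2 fold change -0.78, SE 0.32, adjusted p = 0.0993 in the 6 samples), and the MABsallo-VEGF samples overlapped saline only in replicate 2. Flt1, the high-affinity receptor that also acts as a decoy, stood at 1016, 2285, 1887 and 1928 and 1352, 1659, 802 and 1554 (log2 fold change -0.74, SE 0.27, adjusted p = 0.0685). The log2 fold changes of Vegfb, Vegfc, Vegfd, Pgf, Flt4, Nrp1 and Nrp2 lay between -0.48 (Vegfc) and 0.95 (Vegfb) in the 6 samples, with adjusted p from 0.375 to 0.987.

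Endothelial cell markers held 14 tested genes, of which 3 were called lower in the 6 samples and 1 higher, and the median log2 fold change was -0.63, or -0.49 in the 8 samples. Tie1, an endothelial receptor kinase, stood at 1154, 3853, 1683 and 1365 in saline and 665, 1534, 504 and 1086 after MABsallo-VEGF (log2 fold change -1.37, SE 0.38, adjusted p = 0.0165). Emcn, a sialomucin of capillaries and veins, stood at 940, 2524, 1976 and 1889.7 and 871, 1050.1, 489 and 1460.5 (log2 fold change -1.46, SE 0.39, adjusted p = 0.0131), and Esam, a junction protein, was called too (log2 fold change -1.08). Cdh5, the cadherin of endothelial junctions, stood at 899, 1297, 776 and 739 and 654, 1592, 464 and 770.3 and was not called (log2 fold change -0.21, SE 0.38, adjusted p = 0.763). Cd34, a sialomucin of endothelial and progenitor cells, was the gene called higher (log2 fold change 4.18, SE 0.78, adjusted p = 0.00131). Its counts were 771, 15.7, 32.2 and 21.1 in saline and 249, 783, 373 and 57.9 after MABsallo-VEGF, and saline replicate 6 had the second highest value of the 8. MABsallo samples, whose cells carry no CD34 vector, stood at 705 ± 515 (SD, n = 4), and in the 8 samples Cd34 was not called (log2 fold change 2.21, adjusted p = 0.229). Summed levels of the endothelial markers ranged from 11046 to 16992 normalized counts in saline and from 6876 to 18102 after MABsallo-VEGF, so the groups overlapped. Of 25 genes that endothelial cells are known to raise in response to VEGF, 1 was called lower in the 6 samples, the tip cell ligand Dll4, at 138, 317, 322 and 176 and 70.3, 100, 70.6 and 227 (log2 fold change -1.71, SE 0.42, adjusted p = 0.00817). Esm1 and Apln, other tip cell genes, had log2 fold changes of -0.30 ± 1.30 and 0.90 ± 0.89 (SE). Among 14 pericyte and mesoangioblast markers, Notch3 and Itga4 were called higher and Mcam and Kcnj8 lower. That was 14.3% in each direction, beside 11.5% higher and 2.26% lower over all genes. Above saline in the 6 samples were 5 of the 14, with a median log2 fold change of -0.28. Itga4, the integrin subunit with which cells leave the vessel, stood at 141, 23.5, 3.57 and 42.2 and 297, 417, 308 and 26.7 (log2 fold change 4.32, SE 0.93, adjusted p = 0.0035). Vegfa, Cxcl1, Cxcl3, Cxcl6, Ccl2 and Timp1 encode factors that were assayed in the medium of MABsallo-VEGF. Of these genes 0 were called, with 0 at an unadjusted p below 0.05 in both sets and 0 called by edgeR and DESeq2. The neutrophil chemoattractant Cxcl1 reached 34.4, 27.4, 50 and 109 in saline and 81.1, 91.7, 671 and 89.1 after MABsallo-VEGF, a group in which replicate 3 alone was high.

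Of 11 genes of embryonic muscle, 5 were called higher in the 6 samples and 0 lower, with a median log2 fold change of 1.94 (1.58 in the 8 samples), and 9 of 11 had an unadjusted p below 0.05 in the 8 samples. Myh8, the perinatal myosin heavy chain, stood at 671, 58.8, 307 and 2019.9 normalized counts in saline and 7294, 4059, 5141 and 988 after MABsallo-VEGF (adjusted p = 0.00269 in the 6 samples, where edgeR gave a log2 fold change of 2.69 and whose means were 795 ± 1068 (SD, n = 3) and 5498 ± 1647 (SD, n = 3), and log2 fold change 3.14, SE 0.76, adjusted p = 0.0746 in the 8). Myh3, the embryonic myosin heavy chain, stood at 5444, 227, 733 and 1974 and 5856, 5359, 3718 and 6741 (log2 fold change 2.82, SE 0.75, adjusted p = 0.0131), and here replicate 4 was the highest of its group. Igf2, a growth factor of developing and regenerating muscle, stood at 141, 47, 57.2 and 130.2 and 584, 583, 464 and 405 (log2 fold change 2.92, SE 0.68, adjusted p = 0.00565). No sample of one group reached the other for Igf2, also in all 8 samples, where its adjusted p was 0.0745. Musk, the receptor kinase that builds the neuromuscular junction, stood at 41.3, 0, 3.57 and 0 and 37.8, 50, 70.6 and 8.91, a ratio of means of 44.3 with a counting interval of 7.24 to 1799.6 on 1 saline read in the 6 samples (adjusted p = 0.00228), and Tnnt2, the cardiac and embryonic troponin T, was the fifth (log2 fold change 1.94). Of 20 myogenic regulators, 5 were called higher and 0 lower: Pax7, Pax3, Mymk, Mef2a and Mef2c. Mymk, the membrane activator of myoblast fusion, stood at 451, 145, 46.5 and 373 in saline and 524, 783, 893 and 606 after MABsallo-VEGF, without overlap (log2 fold change 2.38, adjusted p = 0.0265). Mef2a, a transcription factor of differentiating muscle, stood at 3629, 941, 2066 and 2882 and 5948, 6076, 4636 and 2832 (log2 fold change 1.63, SE 0.37, adjusted p = 0.00464). Pax7, which marks satellite cells, stood at 20.7, 0, 3.57 and 7.04 and 37.8, 25, 80.7 and 4.45, a few reads per library, and the ratio of means in the 6 samples was 13.5 with a counting interval of 4.32 to 72.8 (adjusted p = 0.0139). Myog, which drives terminal differentiation, stood at 492, 1909, 450.3 and 1721 and 2239, 5084, 2003 and 1950.2 and did not overlap, but was not called (log2 fold change 1.31, adjusted p = 0.109).

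Mature striated muscle proteins held 18 tested genes, of which 2 were called higher, Neb and Ryr1, a share of 11.1% beside 11.5% of all genes. Neb, the giant ruler of the thin filament, stood at 8777, 6942, 10285 and 37816 and 73542, 37905, 35229 and 18977 (log2 fold change 1.73, SE 0.57, adjusted p = 0.0413). Acta1, the skeletal actin, stood at 13828, 56027, 25724 and 72658 and 68043, 60908, 44754 and 40065 and was not called (log2 fold change 0.27, SE 0.58, adjusted p = 0.797). Of 14 smooth muscle genes 2 were called higher, Synpo2 and Pgm5, a share of 14.3% beside 11.5% of all genes. The contractile proteins Myh11 and Acta2 were not called (log2 fold changes 0.86 ± 0.65 and -0.20 ± 0.51, SE). Myh11 stood at 26803, 3387, 49901 and 35796 and 41559, 17552, 50006 and 33390.1, with saline replicate 8 far below the rest. The same library held the lowest count of Synpo2, an actin-binding protein of the Z disc and dense bodies, at 1384, 15.7, 350.2 and 457 in saline and 1665, 1409, 2472 and 468 after MABsallo-VEGF.

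Of 28 genes of dendrite and neuron development 8 were called higher in the 6 samples and 0 lower. The median log2 fold change was 1.06, or 0.52 with bounds. For this, a member with no read in saline or in MABsallo-VEGF was set to its bound at 3 reads per library. Any member averaging at most 3 reads per library in both groups was set to a log2 fold change of 0. Trio, a guanine nucleotide exchange factor of axon growth, stood at 1249.9, 19.6, 136 and 151 in saline and 816, 2550.3, 1715 and 303 after MABsallo-VEGF (log2 fold change 4.34, SE 0.62, adjusted p = 0.0002). Saline replicate 6 was within the range of MABsallo-VEGF, and the log2 fold change of the 8 samples was 2.75 ± 0.78 (SE, adjusted p = 0.0933). Sox11, a transcription factor of growing neurons, stood at 10.3, 0, 3.57 and 7.04 and 64.9, 91.7, 30.3 and 8.91, a ratio of means of 17.6 with a counting interval of 4.88 to 80.7 on 3 saline reads in the 6 samples (adjusted p = 0.00566). Of 30 axon guidance genes, 6 were called higher and 0 lower, among them the semaphorin receptor Plxna1 at 737, 176, 57.2 and 91.5 and 400.1, 1233, 621 and 84.6 (log2 fold change 2.78, SE 0.49, adjusted p = 0.000889). Of the 30 axon guidance genes 17 were above saline in the 6 samples. Their median log2 fold change was 0.09, beside 0.07 for all genes. Ephb4 stood at 399, 847, 801 and 999 and 346, 592, 469 and 828 and was not called by limma (log2 fold change -0.94, SE 0.29, adjusted p = 0.0317). With edgeR it was called lower in the 6 samples (log2 fold change -1.03). None of the dendrite genes or axon guidance genes was free of overlap over all 8 samples. Of 18 Schwann cell and myelin genes, Nrg1 and Sox2 were called higher (11.1%, beside 11.5% of all genes) and 0 lower. Only 6 of 18 were above saline in the 6 samples and 3 of 18 in the 8, with medians of -0.30 and -0.21. Nrg1, the neuregulin that drives Schwann cell growth and myelination, stood at 44.8, 43.1, 35.7 and 17.6 and 146, 125, 156 and 62.3 without overlap (log2 fold change 2.20, SE 0.75, adjusted p = 0.0498). Summed Schwann cell and myelin genes reached 17041, 64607, 19469.9 and 17451 normalized counts in saline, where replicate 8 stood far above the rest, and 14199, 31771, 16522 and 17094 after MABsallo-VEGF.

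Of 8 DNA methylation enzymes 4 were called higher in the 6 samples and 0 lower. The median log2 fold change of the list was 1.90, or 1.32 with the same bounds. Dnmt3a, a de novo methyltransferase, stood at 344, 192, 189 and 204 in saline and 584, 825, 772 and 263 after MABsallo-VEGF (log2 fold change 1.88, SE 0.43, adjusted p = 0.00502). Tet1, Tet2 and Tet3 oxidise methylcytosine, the first step of its removal. Tet1 stood at 41.3, 0, 21.4 and 45.7 and 146, 150, 156 and 120.2 without overlap in the 8 samples (log2 fold change 3.90, SE 1.28, adjusted p = 0.0413), and edgeR did not call it in the 6 samples (adjusted p = 0.0599). Tet2 stood at 813, 172, 689.7 and 655 and 1492, 1409, 2038 and 788 (log2 fold change 1.92, SE 0.51, adjusted p = 0.0126) and Tet3 at 207, 19.6, 64.3 and 49.3 and 406, 250, 595 and 93.5 (log2 fold change 3.27, SE 0.72, adjusted p = 0.00376). Dnmt1, the maintenance methyltransferase, stood at 795, 502, 461 and 429 and 811, 750.1, 812 and 601 and was not called (log2 fold change 0.77, SE 0.31, adjusted p = 0.0904). Uhrf1 and Dnmt3b were not called either (adjusted p = 0.802 and 0.255), and Tdg, which excises oxidised methylcytosine, had an adjusted p of 0.0389 but a log2 fold change of only 0.62. Of 51 histone methylation enzymes 18 were called higher and 0 lower, with a median log2 fold change of 0.75. The count includes Setd3, which was listed with the SET domain family but is known to methylate a histidine of actin. It stood at 544, 62.7, 164 and 106 and 541, 875, 888 and 209 (log2 fold change 2.85, SE 0.40, adjusted p = 0.000197). Kdm6a, which removes methyl groups from a repressive mark of histone H3, stood at 603, 294, 339.5 and 377 and 919, 900.1, 964 and 263 (log2 fold change 1.47, SE 0.34, adjusted p = 0.00557), and MABsallo-VEGF replicate 4 was below every saline sample. Of 43 chromatin remodellers 15 were called higher and 0 lower (median 0.92). Pbrm1, the polybromo subunit of a SWI/SNF complex, stood at 2104, 404, 889.9 and 904 and 3363, 3209, 3269 and 1273 (log2 fold change 2.25, SE 0.32, adjusted p = 0.000208). Chd9 stood at 2004, 204, 904 and 922 and 3131, 3934, 3249 and 1184 (log2 fold change 2.62, SE 0.42, adjusted p = 0.000417). Of 30 histone acetylation enzymes 6 were called higher and 0 lower, among them Hdac1, a deacetylase, at 1983, 368, 772 and 1017 and 1655, 2100.3, 2013 and 988 (log2 fold change 1.53, SE 0.31, adjusted p = 0.00204), and Kat6a, an acetyltransferase, at 1064, 172, 325 and 387 and 1871, 2259, 2149 and 383 (log2 fold change 2.90, SE 0.44, adjusted p = 0.000274). Of the 30 histone acetylation enzymes 17 were above saline in the 6 samples. Hat1 was lower without overlap in all 8 samples, at 592, 1337, 572 and 609 and 395, 375, 409 and 490. In the 6 samples limma did not call it (log2 fold change -0.98, SE 0.28, adjusted p = 0.0217). There edgeR and DESeq2 called it lower (log2 fold changes -1.20 and -1.09). In the 8 samples the median log2 fold changes of the 4 lists were 1.37, 0.48, 0.64 and 0.27, beside 0.05 for all genes. With bounds set in the same way they were 0.89, 0.48, 0.64 and 0.04, beside 0.00 for all genes. Histone acetylation enzymes went from 0.35 to 0.14 in the 6 samples.

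Of 39 splicing factors 6 were called higher (15.4%, beside 11.5% of all genes) and 0 lower. In the 6 samples 24 of them were above saline, with a median log2 fold change of 0.29. Hnrnpul2 stood at 475, 82.3, 125 and 70.4 in saline and 849, 1142, 863 and 174 after MABsallo-VEGF (log2 fold change 3.38, SE 0.40, adjusted p = 6.06e-05), and Hnrnpa2b1, an RNA-binding protein of splicing and transport, at 334, 82.3, 107 and 236 and 984, 1117, 1085 and 263 (log2 fold change 3.04, SE 0.63, adjusted p = 0.00263). Hnrnpa1 was lower without overlap in all 8 samples, at 3030, 5001, 2802 and 2921 and 2525, 2292, 2306 and 2084. It was not called (log2 fold change -0.54, SE 0.27, adjusted p = 0.188 in the 6 samples). Of 276 zinc finger genes 51 were called higher (18.5%) and 2 lower, and the median log2 fold change was 0.28, or 0.01 with bounds. Zfp207 stood at 1023, 235, 329 and 369.5 and 1709, 1609, 1968 and 334 (log2 fold change 2.52, SE 0.27, adjusted p = 2.25e-05). Gene models with names of small noncoding RNAs held 230 tested genes, 43 called higher and 3 lower. Their median log2 fold change of 1.40 became 0.00 with the same bounds. Many such models are near-identical copies, which makes the count of any single one uncertain.

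Of 13 mitochondrially encoded mRNAs 3 were called higher, Mt-nd6, Mt-atp8 and Mt-nd4l. Mt-nd6, the only one of them encoded on the opposite strand, stood at 658, 43.1, 179 and 296 in saline and 2768, 5234, 3753 and 356 after MABsallo-VEGF (log2 fold change 4.83, SE 0.61, adjusted p = 7.98e-05). Mt-atp8, which overlaps Mt-atp6, stood at 22271, 13969.6, 10649.9 and 13496 and 73796, 166155, 96521 and 17588 (log2 fold change 3.07, SE 0.53, adjusted p = 0.000709). Whether the counting used the strand is not given in the sources used here, so both are uncertain. The 13 mRNAs together took 11.7%, 17.2%, 11.1% and 11.4% of the saline libraries and 10.3%, 14.6%, 10.2% and 11.6% of those of MABsallo-VEGF, with overlap. Nuclear genes of the respiratory chain (84 tested) held 0 calls by limma and DESeq2 and 1 lower by edgeR, and 11 had an unadjusted p below 0.05 in the 6 samples. There 18 of the 84 were above saline, with a median log2 fold change of -0.19. The gene that edgeR called was Atp5pf, which fell just short of the limit by limma (log2 fold change -0.999, SE 0.23, adjusted p = 0.00493). Of 88 cytosolic ribosomal protein genes 1 was called higher and 2 lower, Rps9 and Rps20. The shares were 1.14% higher and 2.27% lower, beside 11.5% and 2.26% of all genes. Rps20 stood at 1191, 1489, 979 and 1010 and 579, 367, 691 and 1224 (log2 fold change -1.11, SE 0.30, adjusted p = 0.0135), and the processed pseudogenes of this family make such counts uncertain.

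Of 10 red cell genes, 3 were called lower in the 6 samples (Hbb, Hba-a1 and Alas2) and 0 were called higher, with a median log2 fold change of -2.44. Hbb, a beta globin, stood at 269, 6989, 24874 and 16075 in saline and 238, 992, 600.4 and 35554 after MABsallo-VEGF (log2 fold change -4.75, SE 1.19, adjusted p = 0.00898). The lowest saline sample was replicate 6 and the highest of all 8 was MABsallo-VEGF replicate 4, and with both the log2 fold change was -1.80 ± 1.44 (SE, adjusted p = 0.531). No red cell gene had an unadjusted p below 0.05 in the 8 samples. Alas2, the first enzyme of haem synthesis in erythroid cells, stood at 58.5, 1482, 1594 and 1168 and 37.8, 325, 136 and 1603 (log2 fold change -3.55, SE 1.12, adjusted p = 0.0338). Globin copies share sequence, which makes counts of single copies uncertain. Summed red cell genes reached 39653, 379655, 575353 and 368740 normalized counts in saline and 23132, 193258, 47731 and 447838 after MABsallo-VEGF, and the part of blood in the other results was not tested.

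Of 26 antioxidant and glutathione enzymes 2 were called lower, Sod3 and Cat, and 1 higher, Gsr. These are 7.69% lower and 3.85% higher, beside 2.26% and 11.5% of all genes. Sod3, the superoxide dismutase of the extracellular matrix and vessel wall, stood at 3192, 11402, 10357 and 6626 in saline and 2260.2, 3067, 1937 and 6002 after MABsallo-VEGF (log2 fold change -1.95, SE 0.33, adjusted p = 0.000574 in the 6 samples, log2 fold change -1.24, SE 0.37, adjusted p = 0.107 in the 8). Cat, catalase, stood at 2665, 7604, 3556 and 3635 and 2644, 1675, 2235 and 2859, and Gsr, glutathione reductase, at 468, 82.3, 186 and 197 and 562, 275, 933 and 147. Of 27 genes of the hypoxia response and glycolysis, 1 was called lower (Adm) and 2 higher (Egln1 and Hk1). The shares were 3.70% lower and 7.41% higher, beside 2.26% and 11.5% of all genes. Adm, the hypoxia-induced peptide adrenomedullin that widens vessels, stood at 309.9, 2175, 1126 and 662 and 178, 267, 217 and 1006 (log2 fold change -2.43, SE 0.58, adjusted p = 0.00698), and MABsallo-VEGF replicate 4 lay within the saline range. Egln1, the oxygen sensor that hydroxylates the hypoxia-inducible factors, stood at 72.3, 0, 3.57 and 0 and 64.9, 125, 146 and 0. In the 6 samples saline held 1 read of Egln1, and the ratio of means was 94.1 with a counting interval of 15.7 to 3664 (adjusted p = 0.00239).

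Mast cell genes had the lowest median of all lists in the 6 samples, -2.84 (-2.44 with bounds), and in the 8 samples it was -2.59 (-1.89 with bounds). Of 13 tested, 5 were called lower and 0 higher in the 6 samples: Cpa3, Tpsab1, Ms4a2, Fcer1a and Mcpt1. Cpa3, a carboxypeptidase of mast cell granules, stood at 62, 862, 236 and 155 in saline and 10.8, 142, 15.1 and 49 after MABsallo-VEGF (log2 fold change -3.40, SE 1.14, adjusted p = 0.0458), and saline replicate 6 lay within the range of MABsallo-VEGF. Tpsab1, a tryptase, stood at 48.2, 247, 100.1 and 127 and 0, 66.7, 0 and 31.2 (log2 fold change -5.18, SE 1.33, adjusted p = 0.0107), with 2 samples at 0, and edgeR gave a log2 fold change of -3.19. Ms4a2, the beta chain of the IgE receptor, stood at 20.7, 125, 32.2 and 21.1 and 0, 16.7, 5.04 and 4.45 without overlap. For each of these 3 genes saline replicate 8 held the highest count of all 8. Mcpt1 was at 0 in every MABsallo-VEGF sample, too few reads for a fold. Of the 13 genes 2 were above saline in the 6 samples. One was Gata2, at 1405, 435, 3102 and 2544 and 5726, 492, 3617 and 2070 (log2 fold change 0.52, SE 0.78, adjusted p = 0.705). Summed mast cell genes overlapped, at 2193, 5480, 4228 and 3596 normalized counts in saline and 5926, 1392, 3975 and 2578 after MABsallo-VEGF.

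Macrophage genes (18 tested), inflammatory cytokines (20), neutrophil genes (10), B and T cell genes (13), urothelial and squamous genes (19) and cell cycle genes (22) held 0 calls by limma in the 6 samples. In the same order, 1, 2, 1, 1, 1 and 0 of them had an unadjusted p below 0.05, edgeR called 0, 0, 0, 0, 1 and 0, and DESeq2 0, 1, 0, 1, 1 and 1. The macrophage list had a median log2 fold change of -0.88 in the 6 samples and -0.47 in the 8. Adgre1, the F4/80 antigen of macrophages, stood at 541, 964, 554 and 749.6 in saline and 86.5, 525, 409 and 1011 after MABsallo-VEGF (log2 fold change -1.47, SE 1.08, adjusted p = 0.391). Il1b, the inflammatory cytokine interleukin 1 beta, stood at 592, 290.1, 218 and 183 and 395, 733, 1680 and 588 (log2 fold change 1.79, SE 0.69, adjusted p = 0.0817). Of 21 fibroblast and matrix genes, Lum and Mmp2 were called lower and Thbs1 higher. These are 9.52% lower and 4.76% higher, beside 2.26% and 11.5% of all genes. Lum, the small proteoglycan lumican that spaces collagen fibrils, stood at 9731, 14530.1, 9635 and 8175 and 1995, 6176, 2008 and 11653 (log2 fold change -1.84, SE 0.48, adjusted p = 0.0123). Summed fibroblast and matrix genes ranged from 449260 to 584887 normalized counts in saline and from 144847 to 739310 after MABsallo-VEGF, with replicates 1 and 3 below all saline samples and replicate 4 above them. Of 12 adipocyte genes 1 was called lower by limma, Lipe, the hormone-sensitive lipase, at 1329, 4574, 6558 and 7017 and 1984, 3167, 1332 and 4555 (log2 fold change -1.55, SE 0.42, adjusted p = 0.0154). In the 6 samples edgeR and DESeq2 each called 2 lower, among them Adipoq. Adipoq stood at 51.6, 2113, 57.2 and 7.04 and 0, 16.7, 0 and 8.91 (limma adjusted p = 0.0729). Only 1 of the 12 was above saline there, with a median log2 fold change of -1.70 (-1.54 with bounds). Of all 8 samples the summed adipocyte genes were highest in saline replicate 8 (5155, 37664, 11826 and 13151 normalized counts in saline).

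**Figure D4:**
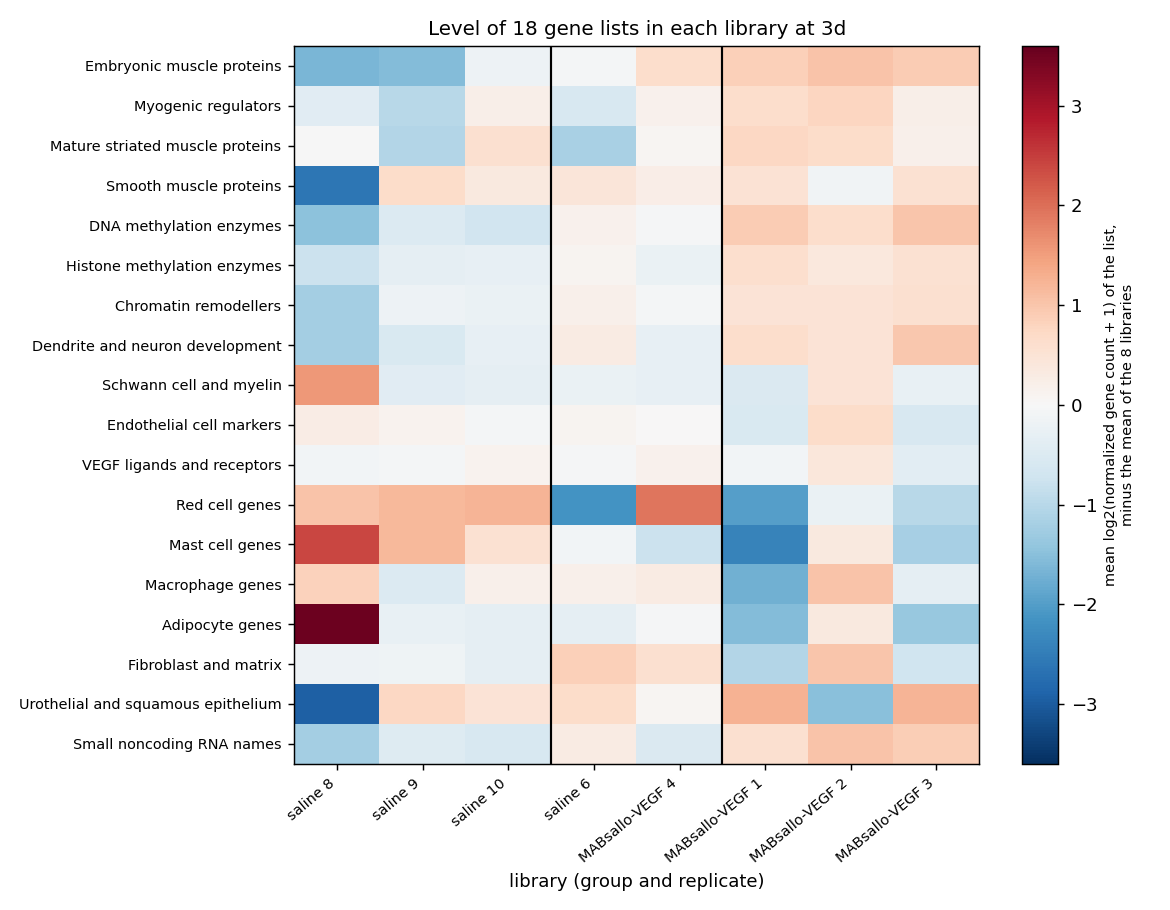
Mean log2(normalized gene count + 1) of 18 gene lists in each library of the comparison, as the difference from the mean of the 8 libraries. Columns show saline replicates 8, 9 and 10, then saline replicate 6 and MABsallo-VEGF replicate 4 between the black lines, then MABsallo-VEGF replicates 1, 2 and 3. The DNA methylation, chromatin remodeller and embryonic muscle rows are higher on the right, red cell genes are lowest in saline replicate 6 and highest in MABsallo-VEGF replicate 4, and saline replicate 8 stands out in smooth muscle, adipocyte, mast cell and urothelial genes.

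A last list holds genes that the study plotted for this day. They were picked on these samples, so their counts are not independent evidence of a direction. Of 22 tested, 16 were called higher and 2 lower (Dio3 and Hbb) in the 6 samples, and 0 in the 8, where 18 had an unadjusted p below 0.05. Dio3, the deiodinase that inactivates thyroid hormone, stood at 86.1, 333, 122 and 66.9 in saline and 10.8, 41.7, 20.2 and 102 after MABsallo-VEGF (log2 fold change -2.67, SE 0.71, adjusted p = 0.0133). C1qa and Efnb3 were not called (adjusted p = 0.241 and 0.306).

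MABsallo and MABsallo-VEGF were compared with the same saline samples, so their differences from saline are not independent. Their values are set side by side, and the difference between both was tested in the same fits. Immt stood at 1658 ± 273 (SD, n = 4) normalized counts after MABsallo and at 1470.2 ± 694 (SD, n = 4) after MABsallo-VEGF, Dnmt3a at 598 ± 99.2 and 611 ± 254 (SD, n = 4), Igf2 at 454 ± 36.8 and 509 ± 89.3 (SD, n = 4) and Myh8 at 10426 ± 7119.8 and 4371 ± 2625 (SD, n = 4). Ccnt1 stood at 3.13 ± 3.68 (SD, n = 4) after MABsallo, where 2 of 4 samples had no read, and at 32.7 ± 14.6 (SD, n = 4) after MABsallo-VEGF. The difference of Ccnt1 between both cell-treated groups was 3.52 on the log2 scale (adjusted p = 0.369) in the 8 samples and 3.88 (adjusted p = 0.153) in the 6. Of the 218 genes chosen by the rule, 0 were DEGs between MABsallo-VEGF and MABsallo by limma, edgeR or DESeq2 in either set, and 18 (8 samples) or 17 (6 samples) had an unadjusted p below 0.05. Over all genes limma called 0 in the 8 samples, with 979 at an unadjusted p below 0.05, and 4 in the 6 samples (3 higher, 1 lower), and edgeR and DESeq2 called 0. The 4 genes, named after their values were seen, were Camk2g and gene models with the names U1 and U6, which were higher after MABsallo-VEGF, and AABR07006480.1, which was lower. Camk2g, a subunit of a calcium-dependent kinase, had no read in any MABsallo or saline sample and stood at 10.8, 8.33, 20.2 and 0 after MABsallo-VEGF. With 1 read worth 5.41, 8.33 and 5.04 normalized counts in replicates 1, 2 and 3, this call rests on a few reads per library. A missing call does not show that the groups are alike.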

How the data were processed

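Whole urethra RNA was sequenced from the 3' end (QuantSeq). Per the labels and the study's methods, the authors trimmed reads, aligned them with HISAT2 to Rnor6.0, discarded multi-mapped reads, counted genes with HTSeq and divided counts by DESeq2 size factors. The deposited values are this signal, and whole reads were recovered for 100% of them (tolerance 0.01). Groups follow the labels. The members and gene lists were chosen with earlier results of these data known.

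Differences were fitted with limma 3.58.1 (R 4.3.3; trended, two-sided) on log2(value + 1) with the 6 groups of the series in one fit, for genes with a mean of at least 2, and p-values were adjusted by Benjamini-Hochberg over all 16336 genes. edgeR 4.0.16 and DESeq2 1.42.0 on recovered reads, other scalings, filters, pseudocounts, sample sets and leave-one-out fits were alternatives. Scripts were tested on simulated data. Named genes were the DEGs of the 8 samples; from the DEGs of the 6 samples that did not overlap in the 8, had a mean of at least 50 in the higher group and a unique symbol that is no clone name, the 12 with the greatest increase and the 12 with the greatest decrease; in each list the first 2 members and the 2 of lowest p in each direction; and all members of the VEGF, medium cytokine, DNA methylation and study-plotted lists. Other list members were named after their values were seen. Values of 0 were bounded at 3 reads per library. For list medians with bounds, members averaging at most 3 reads per library in both groups were set to a log2 fold change of 0. Other members kept their fold change. Replicate pairs differed by more than sampling noise (chi-square per degree of freedom 7.23 to 92.2). Where symbols are shared by several gene models, identifiers kept them apart. Results of 1 gene list are not reported here.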

Additional observations from a re-analysis of the deposited data

Results flagged for a closer look

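Within the groups of 4, 29 of 260 sets of values held 1 sample whose gap to its nearest neighbour, on the log2 scale, divided by the whole range, exceeded the critical value of Dixon's test (which chance passes in about 5% of groups). The genes tested share the same libraries and were chosen with results known, so the flags are not independent.

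Saline replicate 6 was low for Alas2 (58.5 normalized counts), Bcl6b (172) and Ptprb (279) and high for Crtc1 (41.3), Dnmt3a (344), Gm26083 (2217.5), Plxnb1 (44.8), Thbs1 (789) and Zfp518b (10.3). Saline replicate 8 was low for Fam171a1 (0), Map3k20 (0) and Tet2 (172) and stood apart for Cxcl6 (255), Pgf (118) and Tmem138 (239), and mitochondrially encoded mRNAs took 17.2% of this library. Saline replicate 9 held the only read of Dnmt3b in its group (3.57) and saline replicate 10 the only one of Ccnt1 (3.52). MABsallo-VEGF replicate 4 was low for Egln1 (0), Hnrnpa2b1 (263), Hnrnpul2 (174), Itga4 (26.7), Kat6a (383), Kdm6a (263), Map3k20 (111), Pbrm1 (1273) and Zfp207 (334). MABsallo-VEGF replicate 3 stood apart for Cxcl1 (671) and Pgf (85.8).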

How the results depend on the processing

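The count of 5 DEGs in the 8 samples became 401 with DESeq2, 1 with edgeR, 0 without both epithelium-poor libraries, 1 with a minimum mean of 10, 0 with only both groups compared or with the 3 groups of 3d in the fit, 183 with a pseudocount of 5 and 1400 with sample quality weights, and ran from 0 to 1274 when single replicates were left out. The count of 2256 in the 6 samples became 823 without both epithelium-poor libraries and 956 with only both groups compared, and ran from 1181 to 2354 when single replicates were left out. Among the named genes 0 were DEGs between MABsallo-VEGF and MABsallo, against 1 with a pseudocount of 5 in either set and 0 to 1 when single replicates were left out. The other alternatives kept each count within 1.5 times, and the cause of the shifts was not tested. Leaving out the epithelium-poor libraries and removing the AY172581 gene models before scaling were chosen after seeing the data. Of 8256 values of named genes under the alternatives, 373 lost and 363 gained a call, 57 moved without a test, and 173 had another sign, none of them called as reported. Of 1224 list medians 79 had another sign. No paired analysis was possible because the saline and MABsallo-VEGF samples share no replicate number. Shallow MABsallo-VEGF libraries limit genes with few reads, for which 1 read was worth up to 8.33 normalized counts.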
